A study of Mus musculus with 9 samples.

Results

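The T cell receptor gene segments were 156 transcript rows of the array table, out of 65956 transcript rows in all. A row was taken when a gene symbol of the platform annotation began with Trav, Traj, Trac, Trbv, Trbj, Trbc, Trdv, Trdc, Trgv, Trgj or Trgc. The rows comprised 105 alpha variable (Trav), 18 alpha joining (Traj), 23 beta variable (Trbv) and 5 delta variable (Trdv) rows, 1 row with the delta joining and constant segments, and 4 gamma rows. A single symbol named 130 of them and several symbols named 26, with 159 different segment symbols in total. No row with a symbol beginning Trac, Trbj or Trbc was found, so the alpha and beta constant segments were not analysed here.

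The RNA came from Thy1.1+ CD8+ T cells of pmel1 mice, which carry a transgenic receptor for a peptide of the pigment cell protein gp100, after transfer into untreated congenic mice. All 9 recipients received 100 µg of human gp100 peptide and 400 µg of antibody in total, and splenic Thy1.1+ CD8+ cells were sorted from each mouse on day 4, with 1 array per mouse. The combination group (3 mice) was given the CD27 agonist antibody AT124 at 200 µg, with 100 µg of RMP1-14 against PD-1 and 100 µg of 10F.9G2 against PD-L1. The anti-CD27 group (3 mice) received 200 µg of AT124 with 200 µg of isotype control antibody, and the anti-PD-1/L1 group (3 mice) received both blocking antibodies with 200 µg of isotype control antibody. No mice were given the peptide with isotype control antibody only, and the ages of the mice were not given in the sources used here.

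A T cell receptor chain is assembled in the thymus, where RAG proteins join one variable segment to one joining segment, with a diversity segment between them in beta and delta chains. Splicing then connects the joined exon to a constant segment. In a mature alpha beta T cell the alpha locus can still be transcribed through joining segments that lie downstream of the one used, and the delta segments lie inside the alpha locus. Cells with a transgenic receptor carry ready-made alpha and beta chains, and the pmel1 receptor is known to use a chain of the Vα1 family, now called Trav7, with Vβ13, now called Trbv14.

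Values are RMA levels on the log2 scale, where 1 unit is a doubling, and a level depends on the probes of its row as well as on the transcript. The mouse Trav cluster contains duplicated blocks, whose copies carry d or n in their names, and rows for such copies can share probe sequence. The values of 4 pairs of rows were the same on every array: Trav7d-5 with Trav7n-5, Trav14d-2 with Trav14n-2, Trav5d-3 with Trav5n-3, and Trav12n-1 with the row naming Trav12-1, Trav12d-1 and Trav12n-1. Each such pair is 1 measurement counted in 2 rows.

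The anti-PD-1/L1 arrays stood apart from the other 6 in their positive, background, and bacterial and phage control rows and in their spread. Positive control rows averaged 6.81 on combination arrays, 6.70 on anti-CD27 arrays and 5.75 on anti-PD-1/L1 arrays. Background control rows averaged 3.25, 3.27 and 4.06 in the same groups, and the SD over all transcript rows was 2.10, 2.09 and 1.94. Bacterial and phage control rows averaged 8.60, 8.60 and 9.75. For each of these measures, an exact two-sided permutation test of the combination or of anti-CD27 against anti-PD-1/L1 gave p = 0.1, the smallest that 3 against 3 arrays allow. The part of this gap in the differences from the anti-PD-1/L1 group was not tested, and treatment and array quality cannot be told apart there. An exact two-sided permutation test of the combination against anti-CD27 gave p = 0.1 for positive and p = 0.8 for background control rows. For the SD the exact two-sided permutation test of these groups gave p = 0.6. Negative control rows averaged 2.78 on combination arrays and 2.92 on anti-CD27 arrays (exact two-sided permutation test, p = 0.1). Markers of CD8 T cells lay above the negative control rows in 7 of 7 genes in every group, and 0 of the 5 measured markers of gamma delta T cells did so in any group. In anti-PD-1/L1 only, 1 of 3 measured CD4 T cell markers did so (Zbtb7b). On every array of the combination only, 1 of 5 measured NK cell markers (Eomes) and 1 of 7 monocyte and macrophage markers (Cd68) did so. Eomes was also above the negative control rows on anti-CD27 replicates 2 and 3, at 5.93 and 6.08. No measured marker of dendritic cells, neutrophils or erythroid cells did so in any group. Of 7 measured B cell markers, 1 did so, Ighm, with means of 8.99 on combination arrays, 9.48 on anti-CD27 arrays and 8.25 on anti-PD-1/L1 arrays. Relative to anti-PD-1/L1, 2 of the 7 were higher and 4 lower in the combination (Ighm and Cd22 against Ms4a1, Cd79a, Pax5 and Ebf1), with a median difference of -0.36, and 1 was higher and 4 lower in anti-CD27, with a median of -0.29. Among all transcript rows 13.8% were called higher in each comparison, and 50.5% (combination) and 50.2% (anti-CD27) were called lower.

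A segment was said to stand out when its level was above the 90th percentile of all transcript rows on each of the 9 arrays, a limit that lay between 5.95 and 6.36. This held for 10 of the 156 rows (6.41%), against 6.80% of all transcript rows. The 10 rows were Trbv14, Trav7d-5, Trav7n-5, Trav7-5, Traj25, Traj2, Traj38, Traj14, Trav13n-4 and Trdv2-2. Of the other rows, 125 were below the limit on every array and 21 were above it on some arrays. A stricter limit, the 95th percentile of the background control rows on every array, was passed by 3 rows, Trbv14, Trav7d-5 and Trav7n-5, or 1.92% of the segment rows against 2.37% of all transcript rows. The 95th percentile of the negative control rows, which lay between 5.53 and 6.07, was passed on all arrays by 13 rows (8.33%), against 7.69% of all transcript rows.

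**Figure D1:**
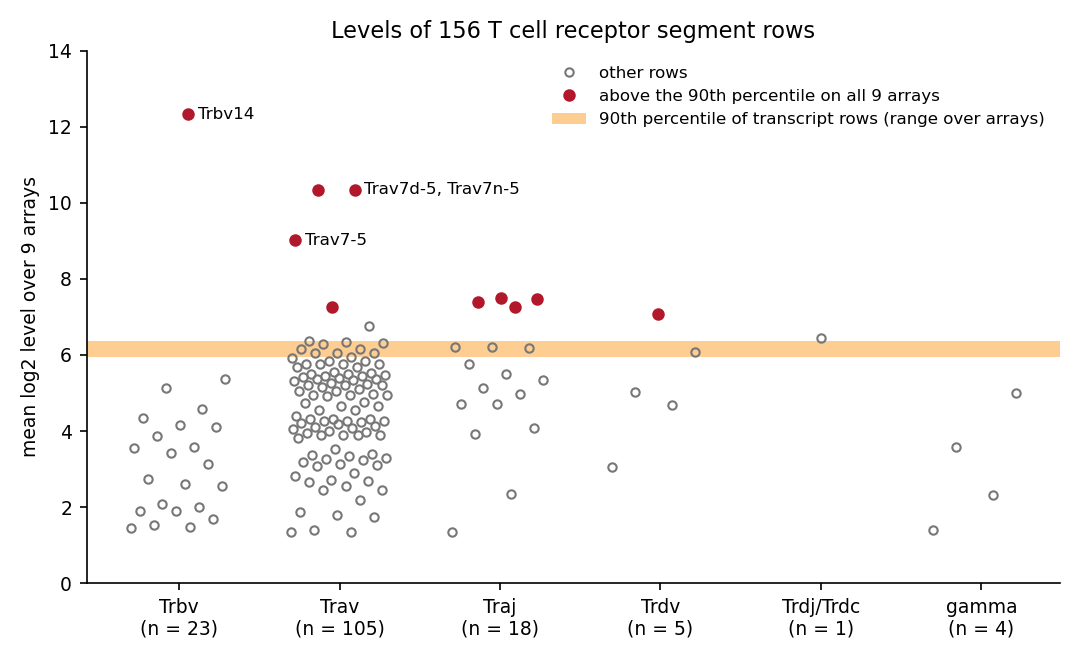
Mean log2 level over the 9 arrays of each of the 156 receptor segment rows (points), by kind of segment, with filled points for the 10 rows above the 90th percentile of all transcript rows on every array and a band for that percentile's range. Trbv14 at 12.34, the pair Trav7d-5 and Trav7n-5 at 10.35 and Trav7-5 at 9.01 lie above all other segment rows, which reach at most 7.50.

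Trbv14, a beta variable segment, had the highest level of the segment rows on every array and ranked between 24 and 107 among the 65956 transcript rows. Its levels were 12.50, 12.49 and 12.49 in the combination, 12.60, 12.59 and 12.59 in anti-CD27 and 12.18, 11.80 and 11.80 in anti-PD-1/L1. The anti-CD27 arrays were highest and the anti-PD-1/L1 arrays lowest, with no overlap between any 2 groups. The difference of the combination from anti-CD27 was -0.10 ± 0.10 (SE; limma, adjusted p = 1).

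Against anti-PD-1/L1, Trbv14 rose by 0.57 ± 0.10 in the combination (adjusted p = 0.00108) and by 0.67 ± 0.10 in anti-CD27 (adjusted p = 0.000477), or 1.48-fold and 1.59-fold. No other beta variable row stood out, and 22 of 23 were under the limit on every array. The next highest beta variable row was Trbv13-1 on the combination and anti-CD27 arrays, and Trbv31 on the anti-PD-1/L1 arrays, where it was below the 95th percentile of the negative controls. Levels of different rows also depend on their probes, so no distance between them is given.

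Trav7d-5 and Trav7n-5, copies of one alpha variable segment measured with the same values, ranked between 362 and 1511. Their levels were 10.96, 10.99 and 10.79 in the combination, 10.83, 11.03 and 11.10 in anti-CD27 and 9.71, 9.04 and 8.65 in anti-PD-1/L1. The first 2 groups overlapped, and both lay above every anti-PD-1/L1 array. The difference of the combination from anti-CD27 was -0.08 ± 0.22 (adjusted p = 1). Against anti-PD-1/L1 these rows rose by 1.78 ± 0.22 in the combination (3.44-fold, adjusted p = 0.00018) and by 1.86 ± 0.22 in anti-CD27 (3.63-fold, adjusted p = 0.000158).

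Trav7-5, the copy without d or n in its name, ranked between 886 and 2850 and showed the same order of groups. It was at 9.66, 9.66 and 9.40 in the combination, 9.50, 9.70 and 9.85 in anti-CD27 and 8.42, 7.62 and 7.31 in anti-PD-1/L1. Its rise over anti-PD-1/L1 was 1.79 ± 0.25 in the combination and 1.90 ± 0.25 in anti-CD27 (adjusted p = 0.000286 and 0.000222). Trav7n-4, the next highest row of the family, was over the stand-out limit on 7 of the 9 arrays, with means of 7.14 ± 0.08 (SD, n = 3) on combination arrays, 7.18 ± 0.10 on anti-CD27 arrays and 5.96 ± 0.22 on anti-PD-1/L1 arrays.

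The Trav7 family had 13 rows, whose means over all arrays ran between 2.89 and 10.35. The lower members were Trav7-1, Trav7d-4, Trav7d-2, Trav7-3, Trav7-6, Trav7d-3, Trav7n-6 (a row that also names C920008G01Rik), Trav7-4 and the row naming Trav7-2 and Trav7d-2, and on every array each of them was below the stand-out limit. All 13 rows were higher in the combination than in anti-PD-1/L1 by the sign of the difference, and 11 of them passed the test, with 12 for anti-CD27 over anti-PD-1/L1, where 13.8% of all transcript rows were called higher in each comparison. The median difference over the family was 0.91 in the combination and 1.04 in anti-CD27. Between the combination and anti-CD27 no Trav7 row was called at an adjusted p under 0.05, and the differences lay between -0.22 and 0.05.

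Outside the Trav7 family, Trav13n-4 was the only alpha variable row that stood out, with means of 7.19 ± 0.06 on combination arrays, 7.35 ± 0.12 on anti-CD27 arrays and 7.21 ± 0.24 on anti-PD-1/L1 arrays (SD, n = 3 each). The groups overlapped, and the row was not called in any comparison. Its direction against anti-PD-1/L1 depended on the scaling: it was called lower in the combination after quantile normalization (-0.45, adjusted p = 0.0165) and higher in anti-CD27 after centring on the array medians (0.47, adjusted p = 0.0129). It was also called higher in anti-CD27 without anti-PD-1/L1 replicate 2 (0.27, adjusted p = 0.0482). Trdv2-2, a delta variable segment, was at 7.15, 7.34 and 6.98 in the combination, 6.95, 7.05 and 7.15 in anti-CD27 and 7.63, 6.74 and 6.79 in anti-PD-1/L1. It was not called either, and anti-PD-1/L1 replicate 1 was the highest of all 9 arrays. Without that array its difference of the combination from anti-PD-1/L1 was 0.40 (adjusted p = 0.0147), against 0.11 with all arrays (adjusted p = 0.672). With the mean of the positive controls as a covariate, the difference from anti-PD-1/L1 was -2.58 in the combination, which was not called, and -2.42 in anti-CD27 (adjusted p = 0.0443).

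**Figure D2:**
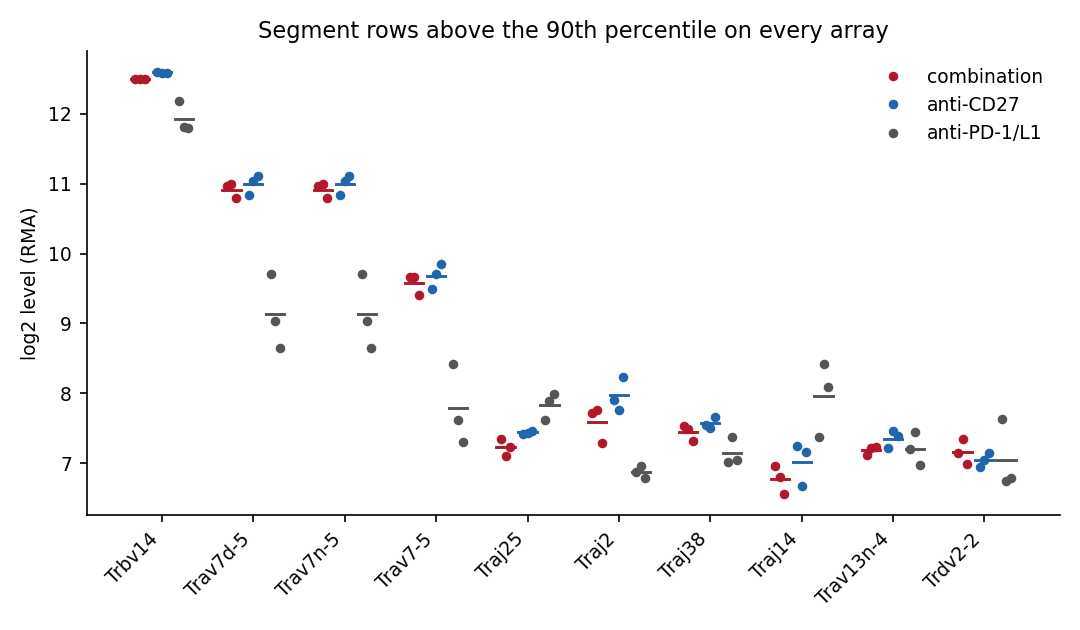
Log2 level on each array (points) and group mean (bars) of the 10 rows that stand out, with the combination, anti-CD27 and anti-PD-1/L1 placed side by side for each row. The Trav7 rows lie lowest in anti-PD-1/L1, at 7.31 to 9.71, and Traj25 and Traj14 lie highest there.

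Of the 18 joining rows, 4 stood out. Traj2 was at 7.71, 7.76 and 7.29 in the combination, 7.91, 7.77 and 8.24 in anti-CD27 and 6.88, 6.96 and 6.79 in anti-PD-1/L1. The anti-PD-1/L1 arrays lay below all others, and the rise over them was 0.71 ± 0.15 in the combination (adjusted p = 0.00311) and 1.10 ± 0.15 in anti-CD27 (adjusted p = 0.000312). After quantile normalization the first was 0.26 and not called (adjusted p = 0.172).

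Traj38 was at 7.54, 7.49 and 7.32 in the combination, 7.55, 7.50 and 7.66 in anti-CD27 and 7.02, 7.38 and 7.05 in anti-PD-1/L1. Anti-PD-1/L1 overlapped with the combination and lay below anti-CD27. The rise over anti-PD-1/L1 was 0.30 ± 0.11 in the combination (adjusted p = 0.0361) and 0.42 ± 0.11 in anti-CD27 (adjusted p = 0.00822). The first call was lost without combination replicate 1 or 2, anti-CD27 replicate 1, or anti-PD-1/L1 replicate 1 or 3 (adjusted p between 0.0528 and 0.113), and with only the 6 arrays of the 2 groups (adjusted p = 0.0714). After quantile normalization neither was called, with differences of -0.14 in the combination and 0.04 in anti-CD27 (adjusted p = 0.385 and 0.824).

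Traj25 and Traj14 went the other way. Traj25 was at 7.34, 7.11 and 7.23 in the combination, 7.42, 7.44 and 7.47 in anti-CD27 and 7.61, 7.90 and 7.99 in anti-PD-1/L1, with no overlap between any 2 groups. Traj14, which RefSeq lists as a joining pseudogene, was at 6.96, 6.80 and 6.56 in the combination, 7.24, 6.67 and 7.16 in anti-CD27 and 7.37, 8.42 and 8.10 in anti-PD-1/L1. Its anti-PD-1/L1 arrays lay above the other 6, by the smallest margin in replicate 1.

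Relative to anti-PD-1/L1, Traj25 fell by 0.60 ± 0.10 in the combination and by 0.39 ± 0.10 in anti-CD27 (adjusted p = 0.00096 and 0.00964). Traj14 fell by 1.19 ± 0.26 and by 0.94 ± 0.26 in the same comparisons (adjusted p = 0.00349 and 0.0115). The margin of a row over the stand-out limit, taken on its least favourable array, was 0.24 for Traj14, 0.62 for Trdv2-2 and 0.75 for Traj25, the 3 smallest among the rows inside. Just outside were the row naming Trav4d-4 and Trav4-4-dv10, with -0.11, Trav13d-3 with -0.11 and Trav13-1 with -0.14.

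Combination and anti-CD27 mice both received the CD27 agonist, so their comparison addresses what the added blockade of PD-1 and PD-L1 changed. The levels of 2 of the 156 segment rows were higher in the combination and of 0 were lower (limma, adjusted p under 0.05 over all transcript rows), against 0.440% higher and 0.212% lower among all transcript rows. At an unadjusted p under 0.05 there were 13 higher and 7 lower rows, 12.8% of the segment rows against 7.65% of all rows. The median difference over the 156 rows was -0.04, beside -0.01 over all transcript rows. None of the 10 rows that stand out was called, and their differences ran between -0.38 and 0.11.

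Both called rows were of the Trav12 family of alpha variable segments. Trav12-1 was at 5.29, 5.42 and 5.32 in the combination, 4.91, 4.91 and 4.84 in anti-CD27 and 4.64, 4.69 and 4.56 in anti-PD-1/L1. The 3 groups did not overlap, and in each of them all arrays lay below the 95th percentile of the negative controls, so no fold is given. The measured difference of the combination from anti-CD27 was 0.46 ± 0.06 (adjusted p = 0.0193).

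Trav12-2 was at 6.28, 6.33 and 6.14 in the combination, 5.86, 5.59 and 5.78 in anti-CD27 and 4.70, 4.70 and 4.58 in anti-PD-1/L1. The groups were again separate, and the combination arrays were above the negative control limit while 1 of the 3 anti-CD27 arrays reached it. The limit itself was lower on the combination arrays (5.66, 5.63 and 5.53) than on the anti-CD27 arrays (5.85, 5.77 and 5.86). The difference of the combination from anti-CD27 was 0.51 ± 0.09 (adjusted p = 0.0436). Each of the 6 combination and anti-CD27 arrays was needed for both calls: leaving out any 1 of them gave an adjusted p between 0.0655 and 0.105 for Trav12-1 and between 0.0912 and 0.201 for Trav12-2. Trav12-2 also lost its call without anti-PD-1/L1 replicate 2 (adjusted p = 0.0684), with only the 6 arrays of the 2 groups (0.0581), after quantile normalization (0.059), after centring on the array medians (0.0527) and with the positive control covariate (0.0808).

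The family had 8 rows, among them the identical pair of Trav12n-1 and the row naming Trav12-1, Trav12d-1 and Trav12n-1, which is 1 measurement. In all 8 rows every combination array lay above every anti-CD27 array, as in 7.82% of all transcript rows, with differences between 0.25 and 0.61. The row with the highest mean over all arrays named Trav12-2 and Trav12d-3, with a mean of 6.90 ± 0.21 on combination arrays, 6.30 ± 0.02 on anti-CD27 arrays and 4.99 ± 0.48 on anti-PD-1/L1 arrays (SD, n = 3 each). Trav12d-2, close to it in level, was at 7.11, 7.16 and 6.94 in the combination, 6.64, 6.45 and 6.61 in anti-CD27 and 4.74, 4.90 and 3.93 in anti-PD-1/L1. Neither of these was called between the combination and anti-CD27 (adjusted p = 0.411 and 0.634), and rows of one family can share probe sequence.

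Over all 156 segment rows, the combination arrays lay above the anti-CD27 arrays without overlap in 14 rows (8.97%, against 7.82% of all transcript rows) and below them in 21 (13.5%, against 9.17%). Of the 14 rows above, 13 were among the 17 rows of the Trav5, Trav12 and Trav16 families, which were picked out after their values were seen. Trav16n, a copy in the Trav16 family, had the smallest unadjusted p of the rows not called, with 4.59 ± 0.08 in the combination and 4.21 ± 0.06 in anti-CD27 (adjusted p = 0.0829), and all its values were below the negative control limit.

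**Figure D3:**
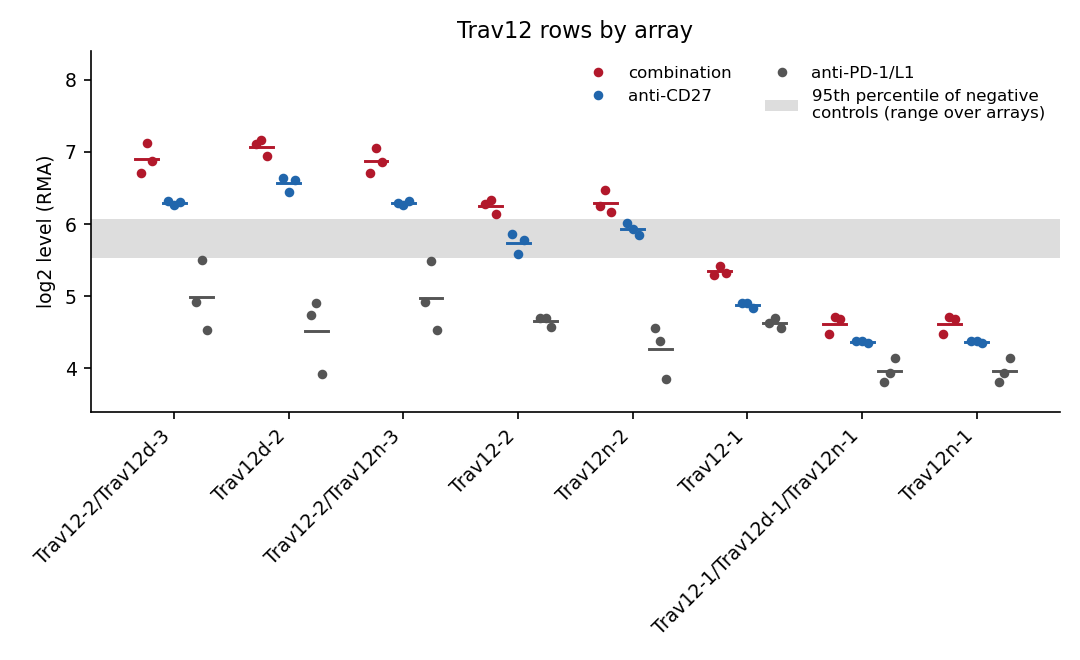
Log2 level on each array (points) and group mean (bars) of the 8 Trav12 rows, with the combination left of anti-CD27 and anti-PD-1/L1 and a grey band for the range over arrays of the 95th percentile of the negative controls. In every row the combination points lie above the anti-CD27 points, and 3 of the 8 rows lie under the band in all groups.

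Against anti-PD-1/L1, which differed from the combination in lacking the CD27 agonist, 67 of the 156 segment rows were higher in the combination (42.9%, against 13.8% of all transcript rows) and 18 were lower (11.5%, against 50.5%), while 71 were not called. In anti-CD27 compared with anti-PD-1/L1, 72 rows were higher (46.2%, against 13.8%) and 17 lower (10.9%, against 50.2%). These comparisons share the anti-PD-1/L1 arrays, so their counts are not independent. The median difference over the segment rows was 0.23 in the combination and 0.25 in anti-CD27, beside -0.27 in both over all transcript rows and 0.26 and 0.22 over the 4486 rows that stand out among all transcripts.

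The split between higher and lower depended on the scaling of the arrays. For the combination over anti-PD-1/L1, all transcript rows gave 9075 higher and 33283 lower calls as deposited, 13197 and 14729 after quantile normalization, and 20196 and 10188 after centring each array on its median, which moved the median difference of all rows to 0.07. The segment rows gave 77 higher and 13 lower after quantile normalization and 109 and 4 after centring. Of the 67 rows called higher, 56 and 67 were still called higher under those settings, and of the 18 called lower, 7 and 4 were still called lower. With the mean of the positive controls as a covariate, which nearly follows the groups, 1 segment row was called higher and 3 lower. In that fit 700 of all 65956 transcript rows were called higher and 894 lower. None of the 85 calls of segment rows was kept.

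Many of the calls concerned rows with low levels. In 35 of the 67 rows that were higher in the combination, all arrays of both groups were below the 95th percentile of the negative controls, as they were in 13 of the 18 lower rows. Both groups were above that limit on all arrays in 6 higher rows (Trbv14, Trav7d-5, Trav7n-5, Trav7-5, Traj38 and Traj2) and in 3 lower rows (Traj55, Traj25 and Traj14). The same 9 rows were those called and above the limit on all arrays for anti-CD27 over anti-PD-1/L1. Where only the anti-PD-1/L1 arrays were below the limit, the fold below is a bound, taken against the negative control limit on each of those arrays.

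By kind of segment, 52 of 105 alpha variable rows were higher and 8 lower in the combination than in anti-PD-1/L1, with a median difference of 0.28, where 13.8% of all transcript rows were called higher and 50.5% lower. Beta variable rows gave 3 higher and 5 lower of 23 and a median of -0.13, and joining rows gave 9 higher and 5 lower of 18 and a median of 0.27. The counts for anti-CD27 over anti-PD-1/L1 were 55 and 5 for alpha variable, 3 and 8 for beta variable, and 10 and 4 for joining rows, beside 13.8% higher and 50.2% lower among all transcript rows. The lower counts of the beta variable rows were thus smaller shares than those over all rows in both comparisons. All 8 Trav12 rows were higher in both comparisons, and of the 11 Trav9 rows 9 were higher in the combination and 10 in anti-CD27.

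**Figure D4:**
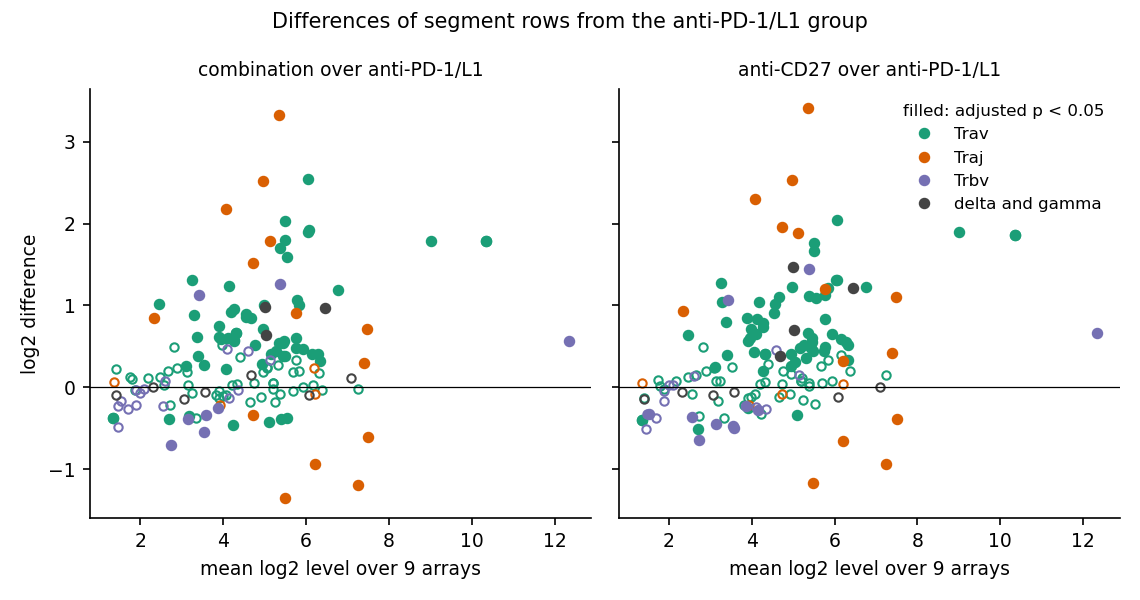
Log2 difference of the combination (left) and of anti-CD27 (right) from anti-PD-1/L1 against the mean log2 level over 9 arrays, for the 156 segment rows coloured by kind, with filled points at an adjusted p under 0.05. Joining rows reach both ends, from 3.32 down to -1.36 in the left panel, and the beta variable rows at low levels lie mostly below 0.

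Traj35, an alpha joining segment, had the largest difference. It was at 6.57, 6.35 and 6.38 in the combination, 6.62, 6.40 and 6.53 in anti-CD27 and 3.70, 2.20 and 3.44 in anti-PD-1/L1. All 6 arrays with the CD27 agonist lay far above the other 3, which were below the negative control limit. The measured difference from anti-PD-1/L1 was 3.32 ± 0.32 in the combination and 3.41 ± 0.32 in anti-CD27 (adjusted p = 4.73e-05 and 4.48e-05), with bounds of at least 1.37-fold and at least 1.45-fold higher.

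Traj47, another joining segment, was at 6.10, 5.73 and 5.59 in the combination, 5.74, 5.61 and 6.10 in anti-CD27 and 3.57, 2.93 and 3.36 in anti-PD-1/L1. The measured differences were 2.52 ± 0.20 and 2.53 ± 0.20 (adjusted p = 1.59e-05 and 1.66e-05), and neither mean reached the negative control limit of the anti-PD-1/L1 arrays, so no fold is given. The measured differences of Traj36, which RefSeq lists as a pseudogene, were 2.18 in the combination and 2.30 in anti-CD27, and those of Traj59 were 1.51 and 1.96. Both rows were below the negative control limit on all arrays of all groups. Traj1, also listed as a pseudogene, had differences of 1.78 ± 0.54 and 1.89 ± 0.54, and the first was not called without combination replicate 1 (adjusted p = 0.0666). It was below the negative control limit on every anti-PD-1/L1 array, on combination replicate 2 and on anti-CD27 replicates 1 and 2, so no fold is given.

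Among the alpha variable segments, Trav12d-2 had the largest difference from anti-PD-1/L1, 2.54 ± 0.22 in the combination (adjusted p = 2.62e-05) and 2.04 ± 0.22 in anti-CD27 (adjusted p = 8.36e-05), with bounds of at least 2.12-fold and at least 1.5-fold. The remaining Trav12 rows among the 10 largest rises were Trav12n-2, with 2.03 in the combination, and the rows naming Trav12-2 with Trav12d-3 and with Trav12n-3, with 1.92 and 1.90. Trav6n-6 was at 6.02, 6.26 and 6.06 in the combination, 5.99, 6.07 and 6.16 in anti-CD27 and 4.38, 4.47 and 4.09 in anti-PD-1/L1. Its difference was 1.80 ± 0.11 and 1.76 ± 0.11 (adjusted p = 3.92e-06 and 4.62e-06), with bounds of at least 1.09-fold and at least 1.06-fold.

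The largest falls were in joining segments. Traj8, which RefSeq lists as a pseudogene, was at 4.92, 5.25 and 4.76 in the combination, 4.95, 5.27 and 5.25 in anti-CD27 and 6.24, 6.34 and 6.41 in anti-PD-1/L1. The anti-PD-1/L1 arrays were the only ones above the negative control limit. Traj8 fell by 1.36 ± 0.14 in the combination and by 1.18 ± 0.14 in anti-CD27 (adjusted p = 5.43e-05 and 0.000123), and was at least 1.65-fold and at least 1.42-fold lower.

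Traj55, also a pseudogene in RefSeq, was at 5.74, 5.74 and 5.91 in the combination, 6.20, 6.10 and 5.93 in anti-CD27 and 6.64, 6.69 and 6.87 in anti-PD-1/L1. The 3 groups did not overlap, and it fell by 0.94 ± 0.10 in the combination and by 0.66 ± 0.10 in anti-CD27 (adjusted p = 6.1e-05 and 0.000423). Traj8, Traj14, Traj25 and Traj55 were the 4 rows still called lower in the combination after centring. Only Traj8 and Traj55 of the rows called lower in anti-CD27 were still called lower there.

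The other named falls were in variable segments at low levels. In the combination against anti-PD-1/L1 they were -0.71 for Trbv23, -0.55 for Trbv2, -0.42 for Trav14d-3-dv8, -0.39 for Trbv16, -0.38 for Trav3n-2, -0.38 for the identical rows Trav5d-3 and Trav5n-3, and -0.38 for Trav4d-4. Trbv12-1 was called lower in both comparisons, with -0.34 in the combination and -0.50 in anti-CD27. These rows were below the negative control limit on every array, except Trav4d-4, which passed it on anti-CD27 replicate 2. None was still called lower after centring.

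Several of these calls of the combination rested on single arrays. The call of Trbv12-1 was lost in 11 of 17 alternatives, among them leaving out combination replicate 1 or 2, any anti-CD27 array, or anti-PD-1/L1 replicate 2 or 3 (adjusted p between 0.0674 and 0.162). The call of Trbv16 was lost in 10 of 17, among them without any 1 combination array, anti-CD27 replicate 2, or anti-PD-1/L1 replicate 1 or 2, and its difference was -0.23 without anti-PD-1/L1 replicate 2. Trav3n-2 lost its call in 10 of 16, among them without any 1 combination array, anti-CD27 replicate 1, or anti-PD-1/L1 replicate 1 or 2, with adjusted p up to 0.112. Trav4d-4 lost its call in 5 of 17, among them without combination replicate 3 or anti-PD-1/L1 replicate 1 or 2 (adjusted p between 0.055 and 0.0688).

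**Figure D5:**
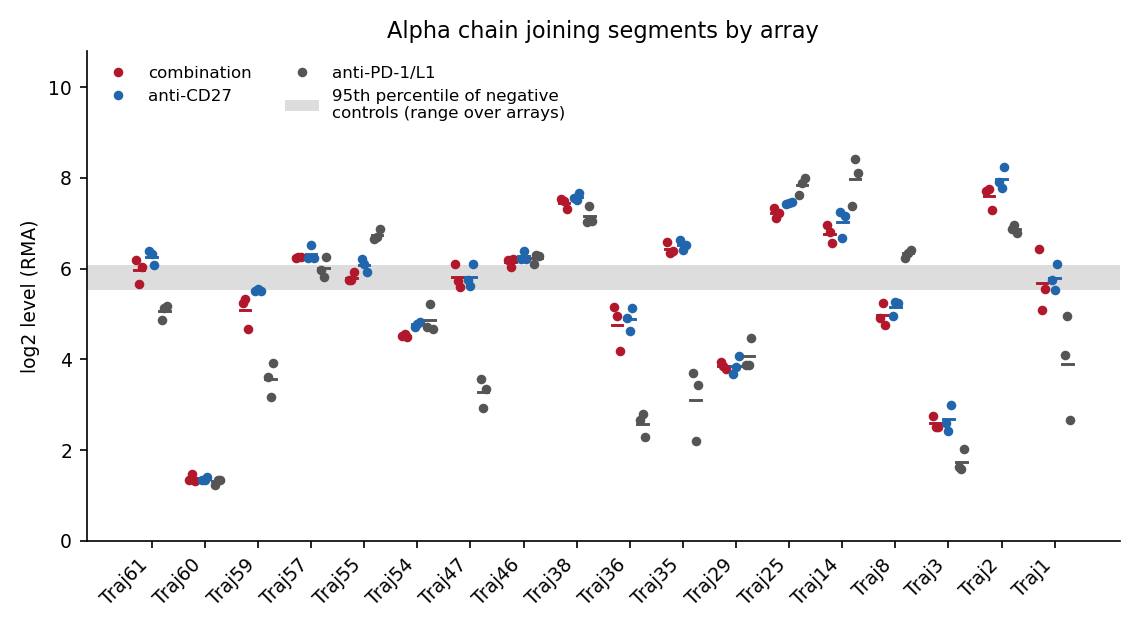
Log2 level on each array (points) and group mean (bars) of the 18 alpha joining rows in descending order of segment number, with the combination, anti-CD27 and anti-PD-1/L1 side by side and a grey band for the range over arrays of the 95th percentile of the negative controls. Traj47, Traj36, Traj35 and Traj1 lie lowest in anti-PD-1/L1, whereas Traj55, Traj25, Traj14 and Traj8 lie highest there.

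Joining segments that RefSeq lists as functional and as pseudogenes were both among the rows that moved. Of the 10 functional rows, 6 were higher and 1 lower in the combination than in anti-PD-1/L1, and of the 8 pseudogene rows, 3 were higher and 4 lower. Among all transcript rows 13.8% were called higher and 50.5% lower, so the lower count of the pseudogene rows was near the share of all rows. Of the 18 joining rows, 17 had a difference below 0 between the combination and anti-CD27, with a median of -0.12, and none was called. The median joining level per array was 6.15, 5.70 and 5.75 in the combination, 5.97, 5.86 and 6.09 in anti-CD27 and 4.79, 5.17 and 4.92 in anti-PD-1/L1.

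The row with the delta joining segments Trdj1 and Trdj2 and the delta constant segment Trdc, which encodes the constant part of the delta chain, was the only constant segment row of the alpha, delta and beta loci. It was at 6.81, 6.77 and 6.50 in the combination, 6.88, 6.96 and 6.96 in anti-CD27 and 6.29, 5.62 and 5.26 in anti-PD-1/L1. The anti-PD-1/L1 arrays lay below the other 6, and the rise over them was 0.97 ± 0.22 in the combination (adjusted p = 0.00455) and 1.21 ± 0.22 in anti-CD27 (adjusted p = 0.00144). On anti-PD-1/L1 replicates 2 and 3 the row was below the negative control limit (6.07 and 6.04). Of the 5 measured gamma delta T cell markers, all below the negative control limit in every group, 0 were higher and 5 lower in both comparisons, where 50.5% and 50.2% of all transcript rows were called lower, with mean levels of the list at 3.70 on combination arrays, 3.71 on anti-CD27 arrays and 4.17 on anti-PD-1/L1 arrays. With the positive control covariate the differences of the delta row were -2.00 and -1.46 (adjusted p = 0.0345 and 0.0461), and its difference of the combination from anti-CD27 was called (-0.54, adjusted p = 0.0297).

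The 4 gamma rows were all under the stand-out limit on every array. The highest named the gamma constant segment Tcrg-C4 with Tcrg-V1, Trgj4 and the predicted gene Gm16602, and was at 5.20, 5.18 and 5.14 in the combination, 5.52, 5.67 and 5.78 in anti-CD27 and 4.43, 4.06 and 4.08 in anti-PD-1/L1. Its groups did not overlap, and all its values were below the negative control limit. The difference of the combination from anti-CD27 was -0.48 ± 0.11 (adjusted p = 0.118), and it was called without anti-PD-1/L1 replicate 1 (adjusted p = 0.0271), with only the 6 arrays of the 2 groups (adjusted p = 0.0397) and in the fit that had the positive controls as covariate (adjusted p = 0.0369).

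Against anti-PD-1/L1 the difference of this gamma row was 0.99 ± 0.11 in the combination and 1.47 ± 0.11 in anti-CD27 (adjusted p = 9e-05 and 1.27e-05). The rows naming Tcrg-C2 with Trgv2 and Trgj2, and Tcrg-V4 with Trgj1 and Tcrg-C1, averaged 3.57 and 2.31 over the 9 arrays, the joining row Trgj3 averaged 1.41, and none of these was called. A further 6 rows with older gamma symbols, which the naming rule did not take, were between 1.09 and 4.18 on all arrays.

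The genes whose products carry the receptor to the surface or serve as its coreceptor are 7 in the list used: the CD3 chains Cd3d, Cd3e, Cd3g and Cd247, the CD8 chains Cd8a and Cd8b1, and Ptcra, the partner of the beta chain in the thymus. Between the combination and anti-CD27, limma called 0 of the 7, with a largest difference of -0.24 for Cd8a, which was called with the positive control covariate (-0.44, adjusted p = 0.0311), and a median of -0.11. Against anti-PD-1/L1, 3 of 7 were higher and 2 lower in both comparisons. Of all transcript rows, 13.8% were called higher in each comparison, and 50.5% (combination) and 50.2% (anti-CD27) were called lower. Cd3e was at 11.01, 10.98 and 10.87 in the combination, 11.04, 11.09 and 11.05 in anti-CD27 and 9.30, 8.90 and 8.48 in anti-PD-1/L1. Its difference of 2.06 ± 0.17 in the combination was 2.17 ± 0.17 in anti-CD27 (adjusted p = 2.11e-05 and 1.71e-05).

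Cd8b1 rose by 1.72 and 1.84 and Cd8a by 1.32 and 1.56 in the combination and in anti-CD27 over anti-PD-1/L1, whereas Cd3d fell by 0.57 and by 0.33. After centring, neither fall of Cd3d was called (adjusted p = 0.0551 and 0.927).

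Of the 12 genes of the V(D)J recombination list, 10 were measured. Between the combination and anti-CD27 limma called 0 of them, and the largest difference was 0.32 for Xrcc5. Against anti-PD-1/L1, 3 were higher in both comparisons, Prkdc, Xrcc5 and Xrcc6, which encode the kinase and the Ku subunits of the DNA-dependent protein kinase that joins DNA ends. The share called higher among all transcript rows was 13.8% in each comparison. Prkdc was at 5.87, 5.70 and 5.60 in the combination, 5.93, 5.63 and 5.82 in anti-CD27 and 3.71, 3.73 and 3.93 in anti-PD-1/L1, a measured difference of 1.93 ± 0.11 and 2.00 ± 0.11 (adjusted p = 1.97e-06 and 1.59e-06). Neither mean reached the negative control limit of the anti-PD-1/L1 arrays, so no fold is given. Each array was also held to its own negative control limit. Of the 10 measured genes, 2 were above it on all combination arrays, 1 on all anti-CD27 arrays and 0 on all anti-PD-1/L1 arrays. Xrcc6 was below it on every array.

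Rag2, the partner of RAG1 in cutting DNA at the segments, fell by 0.52 ± 0.12 in the combination and by 0.47 ± 0.12 in anti-CD27 against anti-PD-1/L1 (adjusted p = 0.00409 and 0.00691), at levels of at most 2.32 on any array. It was 1 of 2 genes of the list called lower in the combination and the 1 called lower in anti-CD27. In the same comparisons 50.5% and 50.2% of all transcript rows were called lower. Neither difference of Rag2 was called after quantile normalization or centring. In sorted cells measured in bulk, fewer cells with a transcript and less transcript per cell cannot be told apart, for these genes and for the segments.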

How the data were processed

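Transcripts were measured on 9 whole-transcript arrays, 1 per mouse and 3 per group. Per the submitters' processing notes, the deposited log2 values were made with oligo 1.38.0 by RMA, which subtracts background, quantile normalizes the probes and summarises them per row. No coordinates are printed, since no source used here gives the array's genome build. Of 72688 rows, 6732 were controls. Symbols came from the platform annotation, and all 159 segment symbols matched the RefSeq table of GRCm38.p6, used for names and for functional or pseudogene status. No sequence of a segment is printed.

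Group means were fitted to the deposited log2 values of all 65956 transcript rows on the 9 arrays with limma 3.58.1 in R 4.3.3 (lmFit and eBayes, two-sided, 6 residual degrees of freedom), with no filter. Benjamini-Hochberg adjustment ran over all rows, and a row was called at an adjusted p under 0.05. The fit was tested on simulated data. The number of arrays limits the precision, and the labels say the cells came from individual mice. Errors of differences are limma's SE.

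Named rows were the constant segments, Trbv14 and Trav7, the 20 highest rows among those that stand out (all 10), for each comparison the 10 largest rises and 10 largest falls among called rows without overlap, up to 4 called genes of each context list (or the most changed gene), and the 3 rows on either side of the stand-out limit. Members and lists were chosen with earlier results of these data known, and the limit from the negative controls was added after seeing the data. Alternatives were quantile normalization, centring on the array median, the upper 50% of rows by mean, rows naming a single gene, the 6 arrays of a comparison alone, a trend in the prior variance, the positive control mean as covariate, replicate number as a block, and leaving out each array.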

Additional observations from a re-analysis of the deposited data

How the results depend on the processing

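Between the combination and anti-CD27, the number of segment rows called higher was 2 as reported and 1 after quantile normalization, after centring on the array medians, with the positive control covariate and with the replicate block. It was 3 with the upper 50% of rows by mean, with rows naming a single gene and with only the 6 arrays of the pair, 2 with a trend in the prior variance, and 0 to 3 when single arrays were left out. Over all 65956 rows it was 290 as reported, 278 after quantile normalization, 297 after centring, 270 with the covariate and 188 with the block. It was 433 of 32978 upper rows, 395 of 30145 single genes, 875 with the 6 arrays, 300 with the trend and 64 to 642 without single arrays. The number of segment rows called lower was 0 as reported, 1 with only the 6 arrays of the pair, 2 with the covariate and 0 to 1 without single arrays. Over all transcript rows the lower counts were 140, 349, 242 and 12 to 247 in the same order. Same-numbered mice are not linked in the labels, and the correlations of their deviations over all rows were between -0.13 and 0.10, so the replicate block is an alternative only. With it Trav12-1 was called (adjusted p = 0.0499), Trav12-2 was not (adjusted p = 0.102), and Traj38 and Trav3n-2 were not called between the combination and anti-PD-1/L1 (adjusted p = 0.0535 and 0.0611), while the counts against anti-PD-1/L1 stayed within 1.5 times.

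For the combination over anti-PD-1/L1, centring gave 109 higher and 4 lower segment rows, beside 20196 and 10188 of all 65956 transcript rows. The covariate gave 1 and 3 segment rows, beside 700 and 894. The median difference was 0.33 after quantile normalization, 0.57 after centring and 0.34 over the upper 50% of rows by mean. For anti-CD27 over anti-PD-1/L1, centring gave 109 and 2, quantile normalization left 9 lower, the upper 50% of rows 11 lower, and the covariate 1 and 4. Over all transcript rows centring gave 18876 and 10411, and the covariate 999 and 1203. Quantile normalization left 15042 lower, and of the 32978 upper rows 15810 were lower. The medians of the segment rows were 0.34 after quantile normalization, 0.57 after centring and 0.39 over the upper 50% of rows. Leaving out single arrays gave 55 to 69 higher and 13 to 19 lower in the first comparison, and 61 to 76 and 11 to 19 in the second. Over all transcript rows it gave 7944 to 9354 higher and 27521 to 33405 lower in the first comparison. In the second it gave 8028 to 9553 and 26730 to 33086. With a limit at the 75th percentile of transcript rows 49 segment rows stood out, with the 95th percentile 4, and with the negative controls in place of the background controls 13 were above background.

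With the positive control covariate, 33 differences from anti-PD-1/L1 that were called as reported, among the named rows, changed sign. In the combination they were -0.56 for Trbv14, -1.14 for Trav7d-5 and Trav7n-5, -1.39 for Trav7-5, -0.0091 for Trav7n-4, -1.04 for Traj1, 0.77 for Traj14, 0.45 for Traj25, 0.45 for Trav5d-3 and Trav5n-3, 1.12 for Trbv12-1, -2.00 for the delta constant row, -0.0622 for the Tcrg-C4 row, -0.13 for Cd3e, -0.70 for Cd8a, -0.14 for Cd8b1, 0.81 for Rag2 and -0.0825 for Xrcc6. In anti-CD27 they were -0.35 for Trbv14, -0.77 for Trav7d-5 and Trav7n-5, -0.96 for Trav7-5, -0.65 for Traj1, 0.83 for Traj14, 0.56 for Traj25, -0.0088 for Trav12n-2, 0.35 for Trav5d-3 and Trav5n-3, 0.81 for Trbv12-1, -1.46 for the delta constant row, -0.26 for Cd8a, 0.73 for Rag2 and -0.16 for Xrcc6. The difference of the combination from anti-PD-1/L1 also changed sign for Traj38 after quantile normalization (-0.14) and for Trbv12-1 after centring (0.0037). The cause was not tested in any of these. The covariate nearly follows the groups. For arrays, signal over background sets the limit, and 13 of the 156 rows were above the negative controls on every array.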
